A study of Mus musculus with 238 samples.

Results

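The cerebellum of diet-restricted and freely fed mice was compared in 9 of the 238 libraries of the series, chosen as all cerebellum libraries of the diet experiment. The mice were females of the strain C57BL/6JN, 19 months old, that were either dietary restricted (aDR, 5 mice, numbered 61, 62, 64, 65 and 67) or fed freely (AL, ad libitum, 4 mice, numbered 63, 66, 68 and 69). No transgene or other treatment is named in the labels, nor the length and depth of the restriction, the hour of sampling or a batch. The series asks where in the brain such interventions act, and it also holds 122 libraries of other brain regions and 9 of liver from the same mice, and 6 cerebellum libraries of male mice that were injected with YMP (young mouse plasma) or with PBS, a saline. Each library is bulk RNA of homogenised tissue, so fewer cells of a type and less RNA per cell cannot be told apart.

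The cerebellum is the hindbrain structure that adjusts movement and posture. Its cortex holds Purkinje neurons, which send its only output, granule neurons, which are the most numerous neurons of the brain, and Bergmann glia, which accompany the Purkinje neurons. Like most tissues it has a circadian clock: the activators CLOCK and BMAL1 bind E-box sequences and drive the genes of their own repressors, PER and CRY, together with output factors such as DBP, TEF and HLF, which act on D-box sequences. Glucocorticoids, the adrenal steroids that rise with fasting and before the active phase, act through the glucocorticoid receptor and induce genes such as Tsc22d3, Fkbp5 and Per1, so the latter belongs to both systems. Vascular endothelial growth factor acts on endothelial cells through the receptor encoded by Kdr.

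The libraries held between 4.86 and 12.1 M counts (M, mega), with 15393 to 17224 genes detected. In every one of them 11 of 15 Purkinje and 11 of 14 granule neuron markers lay above all 122 libraries of the other regions, so the tissue label held. The library of AL mouse 68 stood apart. Its summed choroid plexus markers reached 4254 CPM (counts per M counts of the library), against 121 to 407 CPM in the other 8 libraries, and transthyretin (Ttr), the main secreted protein of that epithelium, was at 1989 CPM there, at 75.3 CPM in AL mouse 66 and below 1 CPM in the remaining 7. The same library held 48.0 CPM of Dbh and 37.8 CPM of Slc6a2, the enzyme and transporter of noradrenaline neurons, which lie in the brainstem and not in the cerebellum. Dbh was at 0 in the other 8 libraries and Slc6a2 at most at 0.0834 CPM. The Hox genes of the caudal brainstem were at or near 0 in all 9. AL mouse 68 also lay farthest out on the first principal component (28.7% of the variance), at 34.9 against -18.3 to 8.9 for the others, so the called genes, and the list counts and medians that shift most, are also given without it.

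**Figure D1:**
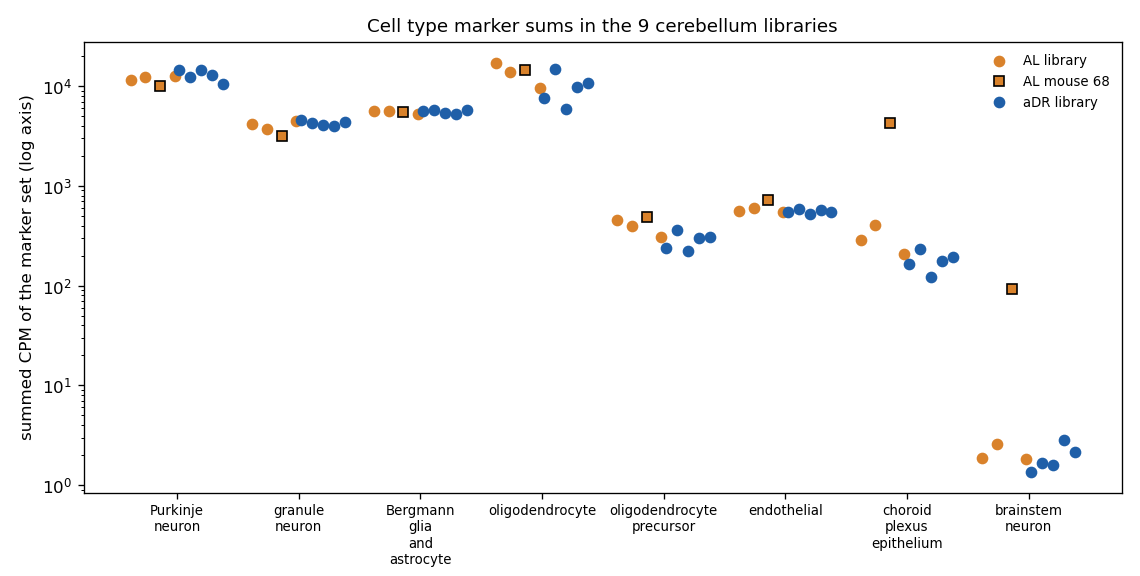
Summed CPM of 8 sets of cell type markers (log axis) in each cerebellum library, AL in orange and aDR in blue, with AL mouse 68 as a square. The square lies far above all other points for choroid plexus (4254 CPM) and brainstem (91.6 CPM) markers. It is also the highest point for endothelial (729 CPM, others up to 594 CPM) and oligodendrocyte precursor markers (486 CPM, others up to 455 CPM). The oligodendrocyte sums of the diet groups overlap.

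Of 13366 genes tested with edgeR's quasi-likelihood test, 7 (0.0524%) passed an adjusted p of 0.05: 5 rose under restriction (0.0374%) and 2 fell (0.015%). The genes that rose were Ciart, Per1, Dbp and Hlf, which belong to the clock, and Tsc22d3, a glucocorticoid target. Those that fell were Kdr and Fgfr2, which encode receptors for vascular endothelial and fibroblast growth factors. In all, 1797 genes had an unadjusted p under 0.05, and the groups did not overlap for 4.42% of all genes tested. Without AL mouse 68, 2 genes passed (0.0149%), Tsc22d3 and Ciart, and 3.8% of genes were higher and 5.18% lower at an unadjusted p under 0.05. DESeq2 called 168 of the same genes (1.26%), of which 61 higher (0.456%) and 107 lower (0.801%). Leaving out any other mouse gave between 0 genes (without aDR mouse 61 or AL mouse 66) and 54 (without aDR mouse 62, of which 10 higher and 44 lower).

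The sequences just before the start sites of 3 of these genes are shown because they hold the letters of the elements through which clock and glucocorticoid receptor act. RefSeq promoters (assembly GRCm38.p6) were searched over the 250 bases before each start site, on both strands, for the E-box CACGTG, the D-box TTATGTAA and the sequence AGAACA, 1 side of the palindrome that the glucocorticoid receptor binds. Capitals mark the matches, each sequence runs 5′ to 3′ on the strand of its gene, and none overlaps an annotated exon.

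Ciart, minus strand, chr3:95882258-95882364: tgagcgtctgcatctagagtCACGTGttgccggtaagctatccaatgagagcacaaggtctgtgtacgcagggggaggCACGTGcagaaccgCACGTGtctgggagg
Per1, plus strand, chr11:69098763-69098808: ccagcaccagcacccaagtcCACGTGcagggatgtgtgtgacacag
Tsc22d3, minus strand, chrX:140600682-140600727: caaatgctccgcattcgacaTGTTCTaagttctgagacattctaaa

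All 7 called genes had a promoter entry, and 2 of them held an E-box, Ciart with 3 copies that begin 116, 58 and 44 bases before the start and Per1 with 1 at 166 bases, in front of the first of its 2 listed starts and inside the annotated span of Per1, outside its exons. An E-box was present before 6.86% of the 27025 genes with an entry. Tsc22d3 held the motif on the strand opposite to the gene, so that the gene's own strand, printed above, reads TGTTCT, 185 bases before the most upstream of its 3 listed starts. AGAACA was present before 18.2% of genes. No called gene held the D-box in the spelling searched, TTATGTAA, which 0.977% of genes did. Other spellings of the D-box were not searched, so their presence before these genes is left unsaid. The promoters of Dbp, Hlf, Kdr and Fgfr2 matched none of the motifs in this window. Such a match describes the letters and is no evidence of binding.

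Ciart encodes CHRONO, a repressor of the CLOCK and BMAL1 pair, and had the smallest p of all genes. It was at 48.6, 45.8, 43.2, 48.0 and 57.4 CPM in aDR mice 61, 62, 64, 65 and 67 and at 26.7, 29.1, 23.6 and 30.4 CPM in AL mice 63, 66, 68 and 69. Every restricted mouse lay above every freely fed mouse, and the log2 change was 0.82 (SE 0.0937, adjusted p 0.0115, edgeR). Without AL mouse 68 it was 0.76 (adjusted p 0.0191). The gene lies at chr3:95878500-95882257 (GRCm38) and shares bases with C920021L13Rik, and the counts carry no strand, so a part of them could belong to that gene.

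Per1 encodes a period protein, a repressor of the clock that glucocorticoids also induce (chr11:69095108-69109965). Its values were 55.1, 57.3, 51.2, 53.5 and 69.7 CPM in the aDR mice, in the order above, and 35.3, 35.1, 31.1 and 40.9 CPM in the AL mice. The groups did not overlap, aDR mouse 67 was the highest, and the log2 change was 0.69 (SE 0.0981, adjusted p 0.0300); without AL mouse 68 it was 0.63 and no longer passed (adjusted p 0.0794).

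Dbp and Hlf encode related transcription factors of the PAR bZIP family that carry the clock's rhythm to target genes. Dbp (chr7:45705100-45710203, overlapping Sphk2) was at 137, 140.4, 138, 126 and 152 CPM in aDR and at 109, 100.5, 94.8 and 104 CPM in AL mice, which amounted to 0.44 on the log2 scale (SE 0.0619, adjusted p 0.0300). Hlf (chr11:90336535-90390917) was at 156, 159, 176, 173 and 151 CPM in aDR and at 127, 129, 116 and 122 CPM in AL mice, or 0.40 on the log2 scale (SE 0.0596, adjusted p 0.0300). In both genes the groups were apart, and aDR mouse 67 was the highest for Dbp and the lowest aDR mouse for Hlf. Without AL mouse 68 the changes were 0.41 and 0.38, with adjusted p of 0.0794 and 0.0895.

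Tsc22d3 encodes GILZ, a leucine zipper protein through which glucocorticoids restrain inflammatory signalling (chrX:140539528-140600522). It was at 264, 273, 255, 235 and 284 CPM in aDR mice and at 169, 175, 196 and 180.1 CPM in AL mice. The lowest restricted mouse was above the highest freely fed one, AL mouse 68, and the log2 change was 0.54 (SE 0.0649, adjusted p 0.0115). Without that library it was 0.59 (adjusted p 0.0166), so Tsc22d3 and Ciart were called with and without it.

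Kdr encodes VEGFR2, the main signalling receptor for vascular endothelial growth factor in endothelial cells (chr5:75932827-75979072, overlapping Gm32727). It was at 7.18, 7.94, 8.42, 6.84 and 8.04 CPM in aDR mice and at 13.5, 12.7, 20.7 and 17.4 CPM in AL mice. The restricted mice lay within a narrow range below all freely fed mice, among which mouse 68 was the highest. The log2 change was -1.06 (SE 0.155, adjusted p 0.0300), and -0.92 without mouse 68 (adjusted p 0.0791).

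Fgfr2 encodes a fibroblast growth factor receptor of glia and epithelia (chr7:130162451-130266808). Values of 76.9, 92.8, 70.5, 80.0 and 64.6 CPM in aDR mice stood against 113, 114, 129 and 111 CPM in AL mice, with no overlap and with mouse 68 again the highest. The log2 change was -0.60 (SE 0.0887, adjusted p 0.0300), and -0.55 without that mouse (adjusted p 0.0895).

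**Figure D2:**
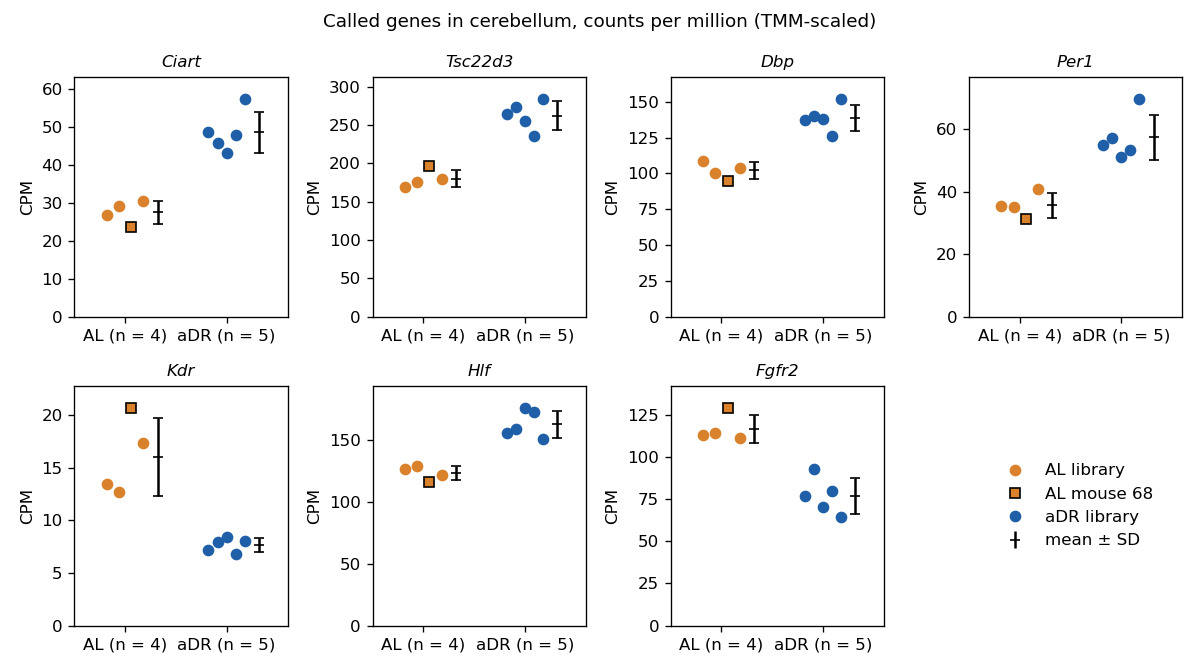
CPM of the 7 called genes in each cerebellum library (points; AL mouse 68 as a square), with the group mean ± SD beside them. The groups do not overlap in any panel: for Kdr the aDR libraries lie between 6.84 and 8.42 CPM and the AL libraries between 12.7 and 20.7 CPM.

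Just outside the threshold, at an adjusted p of 0.0515, came 6 genes: Cry2, Coq10b and Hif3a with higher and Rassf2, Ado and Plxnb3 with lower values in restricted mice. Cry2 encodes a cryptochrome, the partner of the period proteins, and was at 213, 195, 193, 190.2 and 189.9 CPM in aDR against 146, 153, 148 and 168 CPM in AL mice (log2 0.35). Hif3a encodes an inhibitory member of the hypoxia-inducible factors that glucocorticoids induce, and its 5.28, 7.73, 5.08, 5.00 and 6.40 CPM in aDR stood against 2.11, 1.74, 2.92 and 0.984 CPM in AL mice (log2 1.58). Neither pair of groups overlapped. Plxnb3, a semaphorin receptor of oligodendrocytes, had a log2 value of -0.79, Rassf2 one of -0.36 and Ado, which encodes an oxygen-dependent thiol dioxygenase, one of -0.27. Coq10b, which serves coenzyme Q in mitochondria, had a log2 value of 0.49.

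The next 11 genes without overlap between the groups, by the rule for named genes, had adjusted p from 0.0670 to 0.0810. Ifrd1 (log2 0.46) and Gdf10, a growth factor of the BMP family found in Bergmann glia (0.44), were higher. The other 9, Edil3, Frmd4b, Prrg1, Tmem88b, Qk, Sox2ot, Vstm4, Prss35 and Sned1, were lower, from -1.26 for Prss35 to -0.45 for Sned1. Qk encodes quaking, an RNA-binding protein that myelinating cells need, and was at 377, 462, 359, 389.7 and 362 CPM in aDR against 538, 584, 576 and 463 CPM in AL mice. The lowest AL value of Qk, in mouse 69, was just above the highest aDR value, in mouse 62.

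The clock list held 24 genes, all tested. Like the other lists and markers, it was chosen with earlier results of these data known. Counts set beside those of all genes are therefore a description and no test of enrichment. In the clock list 4 were called higher and none lower (all genes: 0.0374% and 0.015%). At an unadjusted p under 0.05, 14 were higher and 2 lower (all genes: 5.75% and 7.7%). The groups did not overlap for 11, all higher (all genes: 2.14% higher). The list's median log2 change was 0.19, against 0.00 over all genes, and 0.16 without AL mouse 68, where 11 were higher and 3 lower at an unadjusted p under 0.05. Among the repressors, which are named here after their values were seen, Per2 had a log2 value of 0.58 (adjusted p 0.151) and Cry1 one of 0.34 (0.114). Of the outputs, Tef had 0.27 (0.102) and Usp2, a deubiquitinase, 0.33 (0.122). The activators stood on the other side of 0: Arntl, which encodes BMAL1, had -0.21 (0.410) and Clock -0.14 (0.351). Nr1d1, the REV-ERB-alpha repressor of Arntl, had 0.14 (0.294) and overlaps Thra on the genome.

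The glucocorticoid response list, also chosen with earlier results of these data known, had 23 of its 25 genes tested. It shares Per1 with the clock list. In it edgeR called 2 genes higher, Tsc22d3 and Per1 (all genes: 0.0374%), 17 were higher and none lower at an unadjusted p under 0.05 (all genes: 5.75% and 7.7%), and the median log2 change was 0.50 (0.45 without AL mouse 68). Fkbp5, a co-chaperone that limits the receptor's own activity, was at 25.6, 16.5, 19.5, 15.2 and 39.7 CPM in aDR and at 10.6, 10.3, 12.2 and 9.56 CPM in AL mice. Its groups were apart and mouse 67 was far above the rest, and at a log2 value of 1.12 it did not pass (SE 0.250, adjusted p 0.114). Zbtb16, a zinc finger repressor named after its values were seen, was at 31.8, 32.6, 26.1, 27.5 and 46.7 CPM against 11.2, 14.4, 24.1 and 17 CPM. It too had no overlap and mouse 67 at the top, with a log2 value of 1.01 (adjusted p 0.102). Plin4, a lipid droplet coat protein, was at 8.66, 10.9, 6.36, 7.17 and 19.0 CPM against 5.50, 4.66, 6.85 and 3.23 CPM, with overlap and mouse 67 highest again (log2 1.02, adjusted p 0.216). Cdkn1a, the cell cycle inhibitor p21 (0.64), Sult1a1, a sulfotransferase (1.39), Map3k6 (0.86), the metallothionein Mt2 (0.61) and Klf9 (0.24), named after their values were seen, had adjusted p from 0.0942 to 0.217.

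**Figure D3:**
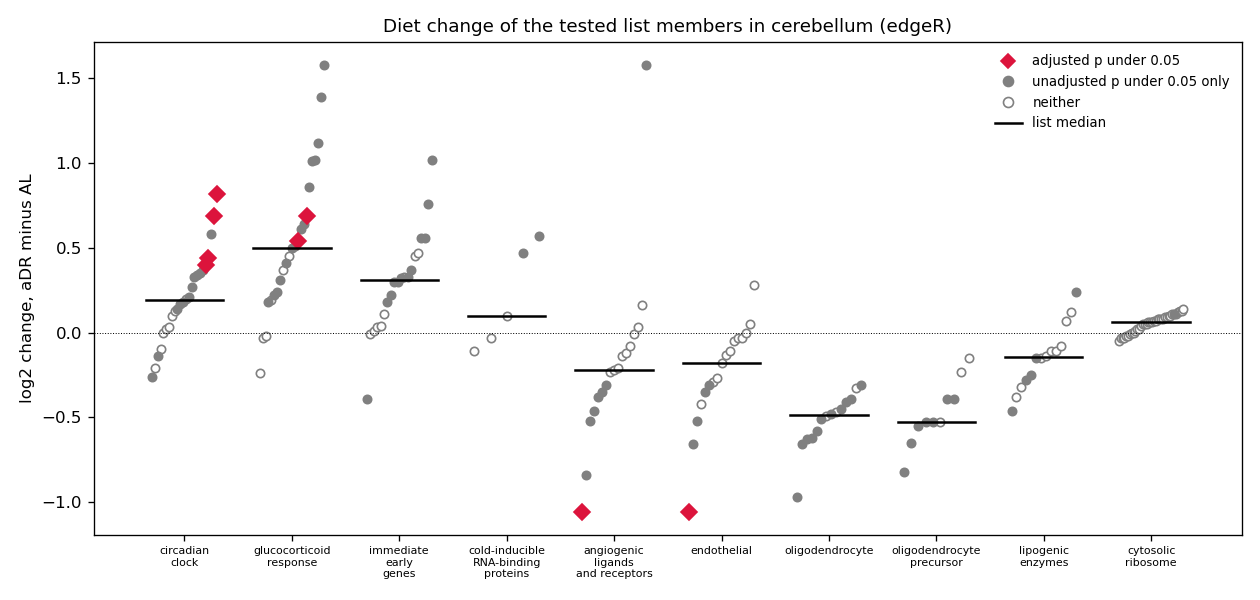
Log2 change (aDR minus AL, edgeR) of each tested member of 10 gene lists and marker sets, with red diamonds for adjusted p under 0.05, grey points for unadjusted p under 0.05 only and open points for neither; the bar is the median. Called members stand in the clock (4), glucocorticoid (2), angiogenic (1, Kdr) and endothelial (Kdr again) columns, and all 14 oligodendrocyte markers lie below 0.

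No immediate early gene was called by edgeR, while DESeq2 called 3 higher (Jund, Nr4a2 and Nr4a3; all genes: 0.456%) and 1 lower (Arc; 0.801%). These genes are switched on within minutes of neuronal firing. Of the 20 tested, 11 were higher and 1 lower at an unadjusted p under 0.05 (all genes: 5.75% and 7.7%), with a median of 0.31. Without AL mouse 68, 8 were higher and 1 lower (all genes: 3.8% and 5.18%), with a median of 0.28. Nr4a3, a nuclear receptor, was at 11.4, 15.3, 18, 15.1 and 17.9 CPM in aDR and 8.88, 8.13, 4.08 and 9 CPM in AL mice (log2 1.02, adjusted p 0.0942). Its relative Nr4a2 had a log2 value of 0.76 (adjusted p 0.102), and in both genes the groups were apart and AL mouse 68 was the lowest. Arc, the synaptic protein of activated neurons, had a value of the opposite sign, -0.39 (adjusted p 0.122). Of the cold-inducible RNA-binding proteins, Rbm3 was at 199, 169.7, 198, 198 and 165 CPM in aDR and 148, 143, 105 and 141 CPM in AL mice. Its groups were apart, with AL mouse 68 far below the other AL mice, and its log2 value of 0.47 (adjusted p 0.102) was 0.37 without that mouse. Cirbp, with overlapping groups, had 0.57 (adjusted p 0.0942). Rbm3 overlaps its antisense gene Rbm3os.

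The lists on metabolism had no gene called by edgeR, while DESeq2 called Fmo2 and Foxo1 higher and Scd2 and Elovl5 lower. The fasting and lipid use list had 3 of 23 higher and 2 lower at an unadjusted p under 0.05 (all genes: 5.75% and 7.7%), with a median of -0.04. In it Fmo2, a flavin monooxygenase, had a log2 value of 1.53 (adjusted p 0.0942). The fasting-induced factor Klf15 had 0.34 (0.163) and the lactate transporter gene Slc16a1 -0.32 (0.160). Lipogenic enzymes had 1 of 14 higher and 4 lower at the same unadjusted p (all genes: 5.75% and 7.7%), with a median of -0.14. Without AL mouse 68, 1 was higher and 3 lower (all genes: 3.8% and 5.18%), with a median of -0.07. Scd2, the desaturase of brain lipid synthesis, was at 574, 615, 580.4, 532 and 534 CPM in aDR and 659, 777, 933 and 741 CPM in AL mice, without overlap (log2 -0.46, adjusted p 0.0901; -0.36 without AL mouse 68). Elovl5, a fatty acid elongase, had -0.28 (adjusted p 0.122). Foxo1, the transcription factor that insulin signalling restrains, led the insulin and IGF list at 0.37 (adjusted p 0.160), and Igfbp5 had 0.23 (0.211). In that list 3 of 26 members were higher and 0 lower at an unadjusted p under 0.05 (all genes: 5.75% and 7.7%).

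Lists on protein handling and energy supply were near 0 in their medians: heat shock proteins 0.00 (22 tested), the endoplasmic reticulum unfolded protein response -0.01 (19), cholesterol synthesis -0.06 (22), the mitochondrial genome -0.04 (13), cytosolic ribosome 0.06 (36) and the nuclear genes of the respiratory chain 0.10 (32, of which 31 above 0 and 4 at an unadjusted p under 0.05, 1 without AL mouse 68). None of their members was called by edgeR, while DESeq2 called the heat shock co-chaperone gene Chordc1 lower (log2 -0.22, adjusted p 0.0346) and Herpud1, of the unfolded protein response, higher (0.20, adjusted p 0.0402). Genes of the cerebellum's own physiology had no call by edgeR or DESeq2: the ataxia genes had a median of 0.06 (24 tested, 1 higher at an unadjusted p under 0.05) and the transmitter receptors and channels one of 0.08 (27 tested, 2 higher and 1 lower); without AL mouse 68 their medians were both 0.04, with 0 higher at an unadjusted p under 0.05. Over all genes, with all 9 libraries, 5.75% were higher and 7.7% lower at an unadjusted p under 0.05. The interferon list had a median of 0.41 with 0 of 20 members at an unadjusted p under 0.05. Its values rested on aDR mouse 62: Ifit3, an antiviral protein, was at 233 CPM there and at 23.3 to 42.6 CPM in the other 8 libraries. Leaving out 1 mouse or changing the scaling moved the list median between -0.33 and 0.63. The complement and MHC class I list had a median of -0.08 (0.06 without AL mouse 68) with 0 of 14. C4b, which encodes complement C4, had a log2 value of -0.46 (adjusted p 0.499), and Fabp7, the fatty acid binding protein of radial glia and astrocytes, one of -0.34 (0.434).

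Among 17 tested angiogenic ligands and receptors, Kdr was called lower (all genes: 0.015%). At an unadjusted p under 0.05, 7 were lower and 1, Hif3a, higher (all genes: 7.7% and 5.75%), with a median of -0.22 (-0.20 without AL mouse 68). Flt1, the decoy receptor for the same growth factor, was at 48.9, 49.7, 46.9, 55.1 and 49.0 CPM in aDR and at 59.7, 59.0, 75.1 and 63.7 CPM in AL mice (log2 -0.35, adjusted p 0.114). Tek, the angiopoietin receptor, was at 12.5, 11.1, 9.69, 10.4 and 7.54 CPM against 13.1, 14.1, 16.5 and 15.7 CPM (log2 -0.52, adjusted p 0.160). Cldn5, the tight junction protein of brain endothelium, was at 10.3, 13.4, 16.0, 12.8 and 11 CPM against 20.5, 24.1, 19.0 and 16.3 CPM (log2 -0.66, adjusted p 0.103). In all of these the groups did not overlap; Tek and Cldn5 are named after their values were seen. The summed 17 endothelial markers overlapped, at 517 to 586 CPM in aDR and 548 to 729 CPM in AL mice, with mouse 68 the highest, and 4 of the 17 were lower without overlap (all genes: 2.28%). The median of these markers was -0.18, and -0.09 without mouse 68. In all, 15 were lower and 2 higher, Mfsd2a (log2 0.28) and Ly6c1 (0.05). Without mouse 68, 4 were lower and 2 higher at an unadjusted p under 0.05 (all genes: 5.18% and 3.8%). The higher ones were Mfsd2a (0.45) and Slc2a1 (0.14). A median of -0.18 was also found for microglia markers (13 lower and 3 higher of 16) and for mural markers (7 lower and 3 higher of 10). In each of these 2 sets, 3 were lower at an unadjusted p under 0.05 (all genes: 7.7%). Without mouse 68 the medians were -0.17 for microglia and -0.10 for mural markers. The part of endothelial content in the Kdr result was not tested.

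The sum of the oligodendrocyte markers was 7587, 14716, 5929, 9861 and 10805 CPM in aDR mice and 17112, 13823, 14517 and 9555 CPM in AL mice, so that aDR mouse 62 lay among the AL mice and AL mouse 69 among the aDR mice. All 14 markers were lower in the restricted group and 11 had an unadjusted p under 0.05 (all genes: 7.7% lower), with a median log2 of -0.49, but none was called by edgeR. Without AL mouse 68, 7 of the 14 had an unadjusted p under 0.05 (all genes: 5.18% lower) and the median was -0.46. Ugt8a was called lower by DESeq2, by limma-voom with sample quality weights and by edgeR without aDR mouse 62. Ugt8a, the enzyme of galactolipid synthesis in myelin, had -0.97 (adjusted p 0.0901) and Opalin -0.66 (0.216), both named after their values were seen. All 10 precursor markers were lower too, 7 at an unadjusted p under 0.05 (all genes: 7.7% lower), with a median of -0.53. Their sum was highest in AL mouse 68, at 486 CPM. Without that mouse 7 were lower at an unadjusted p under 0.05 (all genes: 5.18%), and the median was -0.41.

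With the log2 oligodendrocyte marker sum as a covariate, an alternative chosen after seeing the data, 0 genes were called by edgeR and 1112 had an unadjusted p under 0.05. The log2 changes of the called genes were then 0.83 for Ciart, 0.56 for Tsc22d3, 0.46 for Dbp, 0.71 for Per1, 0.37 for Hlf, -1.13 for Kdr and -0.51 for Fgfr2. Ciart and Tsc22d3 were nearest to the threshold, both with an adjusted p of 0.0656. Tmem88b moved from -0.87 to -0.52, Sox2ot from -0.99 to -0.57 and Plxnb3 from -0.79 to -0.55. Of the 10 precursor markers, 4 were lower at an unadjusted p under 0.05 with the covariate, and their median was -0.24. The part of oligodendrocyte content in the lower genes beyond this fit was not tested.

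**Figure D4:**
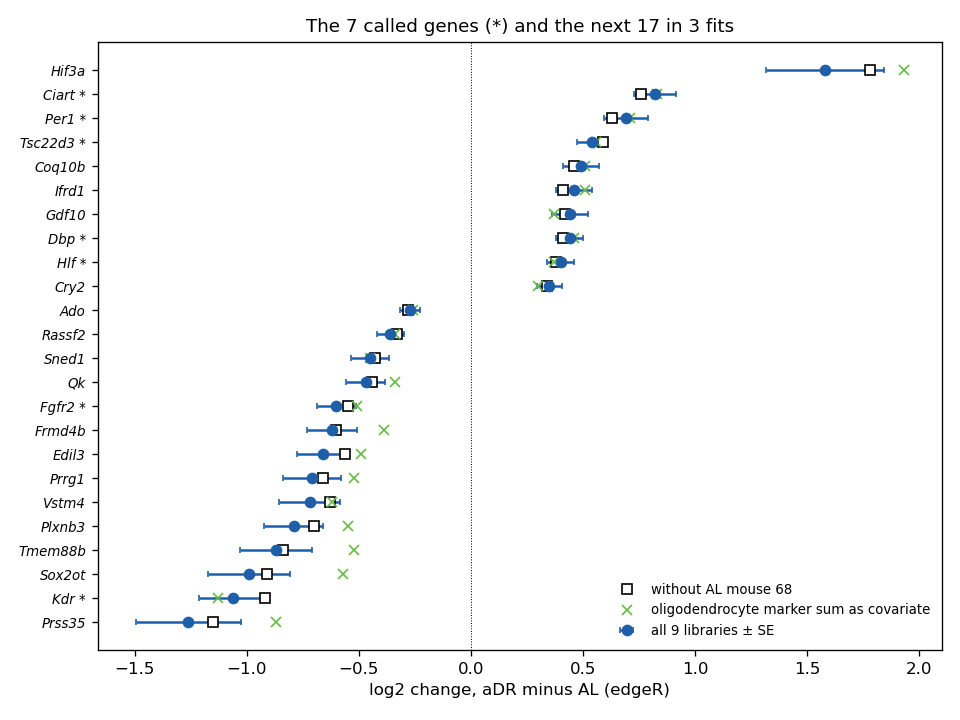
Log2 change (aDR minus AL, edgeR) of the 7 called genes (asterisks) and the next 17 without overlap, with all 9 libraries (blue, ± SE), without AL mouse 68 (squares) and with the oligodendrocyte marker sum as a covariate (crosses). Every gene stays on its side of 0 in the 3 fits, and Sox2ot and Prss35 move most towards 0 with the covariate.

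Neuronal and astrocyte markers had no member called by edgeR. DESeq2 called Gdf10, Etnppl and Gjb6 higher and Aqp4 lower among Bergmann glia and astrocyte markers, and Gdf10 and Aqp4 were also called with sample quality weights and without aDR mouse 62. The sums of Purkinje markers were 10409.9 to 14642 CPM in aDR and 10063 to 12505 CPM in AL mice, those of granule neuron markers 3975 to 4531 CPM and 3188 to 4516 CPM, and those of Bergmann glia and astrocyte markers 5234 to 5802 CPM and 5301 to 5679 CPM. The groups overlapped in each. By edgeR, 14 of 15 Purkinje markers were higher and 1 lower, with 0 at an unadjusted p under 0.05 (all genes: 5.75% and 7.7%). Their median was 0.19, and 0.13 without AL mouse 68. Of 14 granule neuron markers 13 were higher, 1 of them at that p, and 1 was lower. The median there was 0.11, and 0.04 without AL mouse 68. Of 17 Bergmann glia and astrocyte markers 9 were higher and 8 lower, with a median of 0.05.

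The called genes were then followed through the 14 other brain regions of the same mice, each fitted alone. Ciart was higher under restriction in all 14 and called in 6 of them, with log2 changes from 0.31 in medulla to 1.23 in caudate putamen and the cerebellum eighth by size. Tsc22d3 was higher in all 14 and called in 3 (0.18 in pons to 0.84 in corpus callosum), and Dbp in all 14 and called in 3 (0.07 in medulla to 0.53 in visual cortex). Per1 was higher in 13, called in motor cortex alone at 0.38, and had its highest value in pons (0.75), followed by the cerebellum. Hlf was higher in 12 regions and called in none. Kdr was lower in 13 and called in motor cortex (-0.76), Fgfr2 was lower in 12 and called in none, and in both the cerebellum had the largest change in size of the 15 regions.

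Whether the diet change in cerebellum differed from that in the other regions was tested with limma on the cerebellum value and the mean of the other regions of each mouse. In this fit the values of a mouse were not paired. Not every mouse had a library of every region, so the means cover different sets of regions. Of 15616 genes 0 (0%) passed, 1203 had an unadjusted p under 0.05, and edgeR over all brain libraries called 1, Nrgn. With the mouse as a replicate block 0 genes passed too. The same held with regions centred before averaging, an alternative chosen after seeing the data. Per1 changed by 0.70 in cerebellum and by 0.31 elsewhere on this scale, a difference of 0.39 (SE 0.116, adjusted p 0.603, limma). Kdr had -1.01 and -0.52, a difference of -0.49 (SE 0.162, adjusted p 0.603), and Fgfr2 -0.59 and -0.30 (difference -0.30, SE 0.161, adjusted p 0.668). For Ciart (0.83 and 0.76) the difference was 0.07 (SE 0.11), and for Tsc22d3 (0.55 and 0.49) 0.07 (SE 0.0902). Nr4a3 had 1.08 in cerebellum and -0.07 elsewhere, a difference of 1.15 (SE 0.264, adjusted p 0.601). Plin4 stood on the other side, with 0.95 in cerebellum, the smallest of the 15 regions, and 2.09 elsewhere (difference -1.14, SE 0.415, adjusted p 0.638). None of these differences passed, so the larger or smaller values of the cerebellum are not shown to be particular to it.

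**Figure D5:**
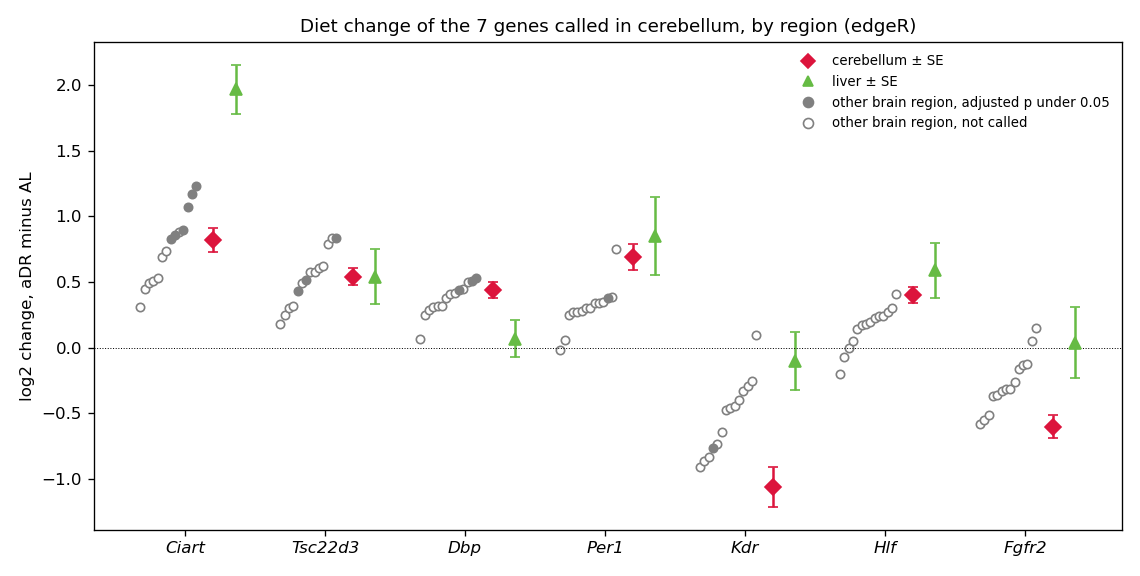
Log2 change (aDR minus AL, edgeR) of the 7 called genes in 14 other brain regions (circles, filled where called), in cerebellum (red diamonds ± SE) and in liver (green triangles ± SE). Kdr at -1.06 and Fgfr2 at -0.60 lie below all other regions in cerebellum, and Ciart has its largest value in liver, 1.97.

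Against liver, where the restricted mice carry the label DR, 31 of 14429 genes (0.215%) had a different diet change by edgeR's interaction test, with a higher value in cerebellum for 13 (0.0901%) and a lower one for 18 (0.125%). Ciart changed by 1.97 in liver (adjusted p 0.00229), which made a difference of -1.17 for cerebellum minus liver (SE 0.200, adjusted p 0.0183). With the mouse as a block that difference had an adjusted p of 0.104. Cry1 had 0.34 in cerebellum and 1.93 in liver (difference -1.62, adjusted p 0.000987) and Usp2 had 0.33 and 2.01 (-1.70, adjusted p 9.91e-05). Nr1d1 had opposite signs, 0.14 in cerebellum and -1.60 in liver (1.73, adjusted p 0.00484). These 3 genes, all members of the clock list, also passed with the mouse as a block (adjusted p 0.0210, 0.0109 and 0.0116). The block left 5 called genes in all, and the others were Gas7 and Alpl, which are not in the clock list. The other called genes of the cerebellum did not differ from liver beyond the threshold: the differences were 0.36 for Dbp (SE 0.149), -0.02 for Tsc22d3 (SE 0.228), -0.18 for Per1 (SE 0.319), -0.19 for Hlf (SE 0.220), -0.96 for Kdr (SE 0.276) and -0.66 for Fgfr2 (SE 0.305).

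In the cerebellum of the plasma experiment (3 YMP against 3 PBS males, other mice than above), 1 of 13558 genes was called (0.00738%), and none of the 7 diet genes. Their log2 changes, YMP minus PBS, were 0.02 for Ciart (SE 0.120), 0.36 for Tsc22d3 (SE 0.101), -0.23 for Dbp (SE 0.0900), 0.07 for Per1 (SE 0.242), 0.07 for Kdr (SE 0.169), -0.03 for Hlf (SE 0.106) and 0.17 for Fgfr2 (SE 0.0876), with adjusted p of at least 0.429. Sex and experiment coincide, so the experiments are set side by side without a test.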

How the data were processed

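RNA of homogenised tissue was isolated on RNeasy columns and turned into Smart-Seq2 cDNA and unstranded Nextera XT libraries, per the labels' protocols. The values are the deposited whole-number counts per gene, made by the authors, in a table of 21076 genes and 238 libraries; the submitters' processing notes name Trim Galore 0.3.7, STAR 2.5.3a, DESeq2 and GRCm38, and the counting program and annotation are not given in the sources used here. Libraries were grouped by region, diet and mouse number. Genes passing filterByExpr (minimum count 10, minimum total 15) were fitted with edgeR 4.0.16 (TMM, quasi-likelihood at its defaults, Benjamini-Hochberg, adjusted p under 0.05) in R 4.3.3, on the 9 libraries and without covariates. CPM are TMM-scaled. Regions were compared with limma 3.58.1, liver by an edgeR interaction, and DESeq2 1.42.0 was an alternative. Libraries with 1 mouse number come from 1 animal: deviations of cerebellum and the other regions correlated by 0.102 on average within mice (-0.067 to 0.211, n = 9) and by -0.0128 between mice. No 2 of the 9 libraries agreed within sampling noise (chi-square per degree of freedom 2.96 or more in 36 pairs). Reads carry no molecular identifiers, and depth bounds what can be detected. The fits were also run on simulated counts, drawn for each gene alone and without a library like that of AL mouse 68. That run does not bear on how far the calls shift between fits. Genes were named by rule (all called, then to 24 those without overlap and smallest p, up to 3 per list, and 7 fixed names), and others, such as the further DESeq2 calls, were named after their values were seen. The comparison, lists and markers were chosen with earlier results of these data known. Coordinates are those of RefSeq on GRCm38.p6.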

Additional observations from a re-analysis of the deposited data

Results flagged for a closer look

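Single libraries lay far from the rest of their group in 11 of 150 groups of values examined, where chance alone gives about 7.5 (1 in 20). AL mouse 68 had 4254 CPM of choroid plexus markers (206 to 407 CPM in the other AL mice) and 91.6 CPM of brainstem markers (1.83 to 2.56), and it was low in Rbm3 (105 CPM against 141 to 148) and Clock (68.2 CPM against 79.9 to 81.5). aDR mouse 67 was high in Mt2 (291 CPM against 145 to 172), Cdkn1a (44.9 CPM against 28.1 to 31.9), Fmo2 (21.2 CPM against 8.26 to 11.3) and Angptl4 (7.38 CPM against 2.22 to 3.14), the last a fasting-induced lipase inhibitor named after its values were seen. aDR mouse 61 was high in Cry2 (213 CPM against 189.9 to 195), aDR mouse 62 in Prrg1 (21.9 CPM against 13 to 15.1), and AL mouse 63 was low in unipolar brush cell markers (167 CPM against 206 to 211). The diet change differed between cerebellum and liver, by edgeR's interaction test, for 31 genes. Among them were Ciart (-1.17), Cry1 (-1.62), Usp2 (-1.70) and Nr1d1 (1.73, cerebellum minus liver on the log2 scale). Both tissues come from the same mice, and with the mouse as a block Ciart did not pass (adjusted p 0.104) while Cry1, Usp2 and Nr1d1 did. No cause of these differences was tested.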

How the results depend on the processing

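The count of 7 called genes (5 higher, 2 lower) depended on the test. It was 168 with DESeq2 (61 higher, 107 lower), 12 with limma-voom (7 and 5), 71 with sample quality weights (26 and 45), 18 with robust edgeR (10 and 8), 15 without a filter on low counts (9 and 6), 15 in a fit of all brain libraries (11 and 4, sharing 3 of the 7) and 0 with the oligodendrocyte covariate. All 7 were shared with each of the first 5. Among the 15 calls in the fit of all brain libraries were Dbh and Ttr, which in cerebellum were far higher in AL mouse 68 than in any other library. Leaving out 1 mouse gave 0 to 54, and leaving out both AL mouse 68 and aDR mouse 62, chosen after seeing the data, 6 (2 and 4, sharing 3). The share of higher calls ran from 18.5% (without aDR mouse 62) to 100% where any were called. RLE and upper quartile scaling gave 7 and 8, a minimum count of 50 gave 10, and the newer quasi-likelihood option (legacy=FALSE), chosen after seeing the data, 10; the planned legacy=TRUE is this version's default and so the fit reported. None of the 7 changed direction; Ciart passed in 18 and Tsc22d3 in 17 of 21 alternatives, Hlf and Kdr in 11. All 7 were lost without aDR mouse 61, without AL mouse 66 and with the covariate. C4b, not called, turned to 0.07 with the covariate. With 1 mouse left out or the scaling changed, list medians stayed on their side of 0 except where within 0.1 of it and for the interferon list (-0.33 to 0.63). With the covariate, the interferon median was 1.04, outside that range, and the complement and MHC class I median moved from -0.08 to 0.28. Against the other regions, edgeR without a replicate block called 1 gene, leaving out 1 mouse 0 to 1, and the mouse as a replicate block 0 (1310 at an unadjusted p under 0.05). Against liver, 31 genes became 5 with the mouse as a replicate block and 7 to 61 without 1 mouse. The plasma count of 1 was 29 with DESeq2 and 0 to 112 without 1 mouse. The cause of these shifts was not tested.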

Other observations

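With other tools, more members of the same lists passed in cerebellum. DESeq2 called 0.456% of all genes higher and 0.801% lower. It called 9 of 24 clock genes, all higher (Per1, Per2, Cry1, Cry2, Dbp, Tef, Hlf, Ciart and Usp2), and 8 of 23 glucocorticoid response genes, all higher, among them Fkbp5, Zbtb16, Hif3a, Cdkn1a and the phagocytosis receptor gene Mertk. It also called Rbm3 and Cirbp higher. Among cell type markers it called Olig1 and Olig2 lower for oligodendrocyte precursors, and Cldn5, Kdr and Flt1 lower for endothelium.

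With the oligodendrocyte marker sum as a covariate, the interferon list, whose median was 0.41, had a median of 1.04, with 15 of 20 members higher at an unadjusted p under 0.05 and 0 called by edgeR. aDR mouse 62, which has both the highest Ifit3 value and the highest oligodendrocyte sum of the restricted mice, is in that fit; its part in this shift was not tested.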
